A study of Mus musculus with 6 samples.

Results

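miR-486 was read in 3 names of the deposited table, mmu-miR-486a-5p, mmu-miR-486a-3p and mmu-miR-486b-3p. They were chosen by name, as the names that begin with mmu-miR-486, and make up 3 of the 1065 names listed. All 6 libraries came from C2C12 cells, an immortalised line of mouse myoblasts, the dividing precursors of skeletal muscle fibres. The labels put 3 libraries in a control group and 3 in a group given TGF-beta, a cytokine linked to fibrosis of muscle, and the series asks which miRNAs of these cells respond to it. They name no dose, duration, isoform, vehicle, genotype change or state of differentiation, and do not say whether the replicates were separate cultures, so p-values measure no more than the spread among the libraries, part of which can be technical. The extraction text speaks of retinas, which does not match the cell line given elsewhere. The retina markers miR-204-5p and miR-211-5p stood at no more than 0.427 RPM in any library and miR-124-3p was not listed. Outside this marker list, the sensory miRNAs miR-182-5p and miR-183-5p were high. They averaged 3974 and 2770 RPM in control and 3778 and 2544 RPM in TGF-beta libraries. Whether any retinal RNA was present was not tested.

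miR-486 is made from a hairpin inside Ank1, the gene of the membrane skeleton protein ankyrin 1, which is expressed in red cells and in striated muscle. In muscle, its expression is driven by the myogenic factor MyoD and by the serum response factor with its coactivator. Its guide strand, the 5p arm, is known to repress Foxo1, a transcription factor that promotes muscle atrophy, and Pax7, a factor of undifferentiated muscle precursors.

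The names go back to a pair of overlapping hairpin genes. In GENCODE M21, Mir486 (miR-486a, 128 bases) lies on chromosome 8 in an intron of Ank1 and on the same strand. Mir3107 (miR-486b, 90 bases) lies on the opposite strand, with all 90 bases inside Mir486. No annotated exon of Ank1 overlaps them. The intron is 6560 bases long, the Mir486 hairpin begins 835 bases after the exon before it, and in 14 of the 15 Ank1 transcripts that span it this is the last intron. The authors worked on mm9, per the submitters' processing notes, so only distances are given here, which are those of GRCm38.

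The 3 names carried almost the same reads. In control libraries 1, 2 and 3, miR-486a-5p had 8080, 6418 and 7083 reads, miR-486a-3p had 8135, 6450 and 7106, and miR-486b-3p had 8046, 6390 and 7044. In TGF-beta libraries 1, 2 and 3 the reads were 4393, 4151 and 3670 for miR-486a-5p, 4416, 4169 and 3720 for miR-486a-3p, and 4368, 4121 and 3662 for miR-486b-3p. The order was the same in all 6 libraries, with miR-486a-3p highest and miR-486b-3p lowest. The span between them was 0.873% to 1.56% of the highest name, widest in TGF-beta replicate 3. The excess of miR-486a-3p over miR-486a-5p was 18 to 55 reads per library. The names are therefore described as 1 signal, with miR-486a-5p standing for it, and their agreement is no independent support.

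Arms of a hairpin seldom have equal reads, since as a rule the strand that is loaded onto Argonaute is kept and the other is lost. RPM is used here for the reads of a name out of 1000000 miRNA reads of its library, uncorrected for length. Among 52 hairpins whose arms both averaged 10 RPM or more, the log2 ratio of 5p to 3p reads had a median size of 3.69. miR-486a had the ratio nearest to 0, with a mean of −0.01 and an SD over the 6 libraries of 0.0053, against a median SD of 0.25. The next were miR-664 at −0.16 and miR-3068 at −0.23. Which strand or arm gave the miR-486 reads is not told by these values, so no arm preference and no change of it with TGF-beta can be read from them.

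**Figure D1:**
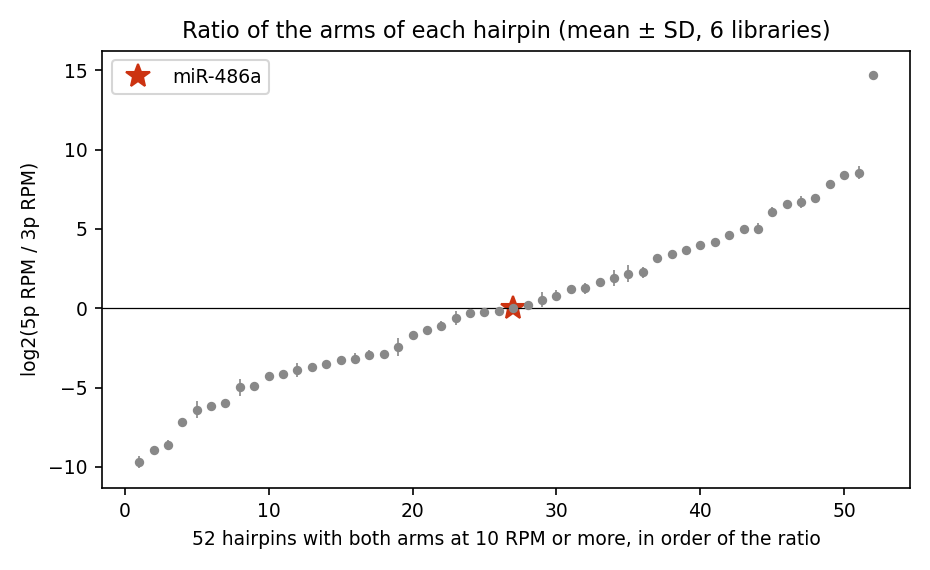
Log2 ratio of 5p to 3p RPM (y axis) for the 52 hairpins with both arms at 10 RPM or more, in order of the ratio (x axis), as mean and SD over 6 libraries. The star marks miR-486a, at −0.01, where the median hairpin is 3.69 away from 0.

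Equal reads were found at few other names. Of the 241 names that averaged 10 RPM or more, 9 pairs agreed within 2% in every library, 3 of them among the miR-486 names. Mature sequences of the miR-486 names were not used here. For 4 of the 6 other pairs the RefSeq table (GRCm38.p6) held both sequences, and in all 4 the names were reverse complements of each other over 19 to 21 bases. Shown are 2 of these pairs and 1 pair with unequal reads, so that the letters can be set beside the reads, with the run that is complementary to the other name in capitals, 5′ to 3′.
miR-9-5p: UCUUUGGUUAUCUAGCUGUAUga
miR-9b-3p: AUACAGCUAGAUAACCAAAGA
miR-374b-5p: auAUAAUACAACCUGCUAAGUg
miR-374c-3p: ACUUAGCAGGUUGUAUUAU
miR-30e-3p: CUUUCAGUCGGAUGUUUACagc
miR-30f: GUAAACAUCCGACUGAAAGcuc
miR-9-5p and miR-9b-3p, on opposite strands of chromosome 3, differed by 0.14% to 0.41% of their reads per library. miR-374b-5p and miR-374c-3p, on chromosome X, differed by 0.142% to 0.438%. miR-30e-3p and miR-30f, on chromosome 4, are complementary over 19 bases as well, but differed by 74.9% to 80.9%. Of the 6 complementary pairs above 10 RPM with known sequences, 4 thus agreed within 2%, miR-24-2-5p and miR-3074-2-3p came near with 1.99% to 2.76%, and miR-30e-3p with miR-30f was the exception. How the authors assigned reads to strands is not given in the sources used here.

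miR-486 was lower in TGF-beta libraries than in control libraries. miR-486a-5p stood at 823, 692 and 756 RPM in control replicates 1, 2 and 3 and at 472, 439 and 407 RPM in TGF-beta replicates 1, 2 and 3. The groups did not overlap: the lowest control value was 1.47 times the highest treated value, a gap of 220.4 RPM. Within the groups the highest library was 1.19 times the lowest in control and 1.16 times in TGF-beta. The mean fell from 757 ± 65.7 to 439 ± 32.3 RPM (SD, n = 3 each), a level 42.0% lower, and all 9 pairings of a control with a treated library gave ratios between 1.47 and 2.02.

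**Figure D2:**
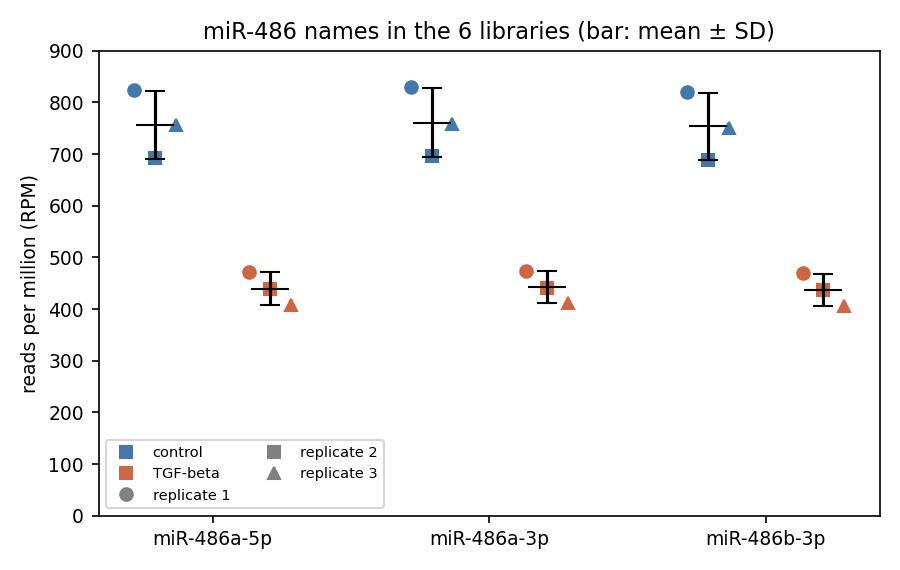
RPM (y axis, from 0) of the 3 miR-486 names in each library, by group (colour) and replicate (marker), with the mean and SD of each group. All treated values, 406 to 474 RPM, lie below all control values, 689 to 829 RPM, and the 3 names repeat the same pattern.

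The difference was tested with limma on log2(RPM + 1) over the 418 names that reached 1 RPM in 3 or more libraries, a filter that all 3 miR-486 names passed. For miR-486a-5p the fitted difference on the log2 scale was −0.78, with an SE of 0.13 and a 95% interval from −1.05 to −0.51 (limma, Benjamini-Hochberg over 418 names, adjusted p = 0.000538). miR-486a-3p gave −0.78 (SE 0.13) and miR-486b-3p −0.78 (SE 0.13), with the same adjusted p. All 3 names passed the threshold of 0.05 as lower with TGF-beta, where 16 of 418 names (3.83%) did, these 3 included, and 33 (7.89%) passed in either direction. Their groups did not overlap, which held with lower treated values for 51 names (12.2%). In the order of all 418 log2 fold changes from the lowest up, the 3 names took ranks 5, 6 and 7, and the same ranks in the order of p. Among RPM levels within a library, miR-486a-5p went from ranks 61 to 63 in control to ranks 77 to 81 in TGF-beta libraries, out of 1065 names.

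**Figure D3:**
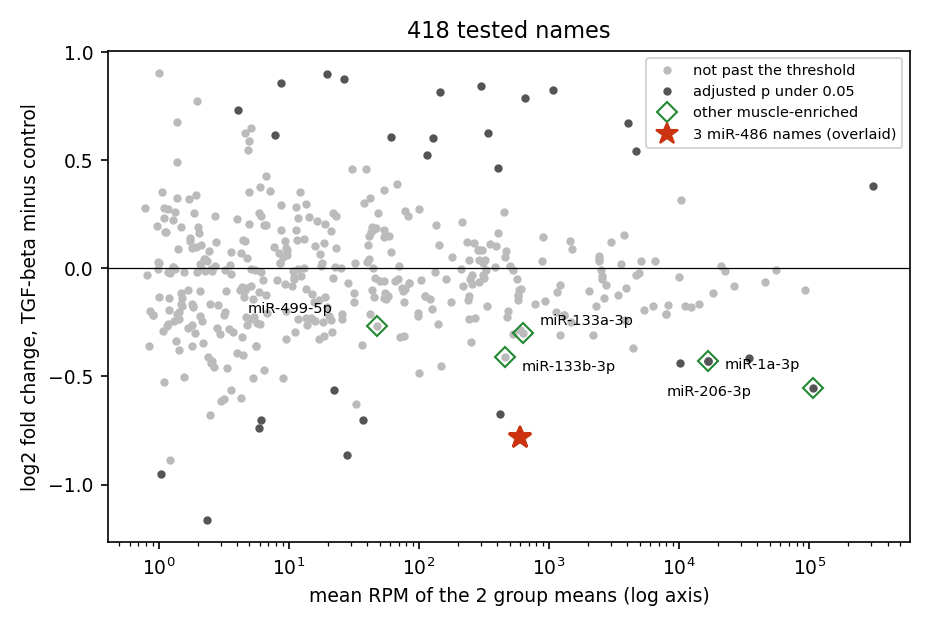
Log2 fold change (y axis, TGF-beta minus control) against the mean RPM of the groups (x axis, log) for the 418 tested names. Dark points passed the threshold, diamonds are other muscle-enriched names, and the star marks the 3 overlaid miR-486 names at −0.78.

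The call held with each library left out in turn. With any single library left out, the log2 fold change of miR-486a-5p lay between −0.85 and −0.72 and the highest limma adjusted p was 0.0102. Without TGF-beta replicate 3, the library with the lowest level, it was −0.73 (SE 0.10, limma adjusted p = 0.00152). The 95% Wilson interval of a library was narrow beside the spread between libraries, from 806 to 842 RPM in control replicate 1 and from 394 to 420 RPM in TGF-beta replicate 3. Such intervals cover counting error only. That error averaged 1.18% of the value in control and 1.57% in TGF-beta libraries, where the replicates had a coefficient of variation of 8.67% and 7.36%. In bulk RNA, fewer cells of a type and less RNA per cell cannot be told apart.

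RPM values are shares, and the most abundant name moved with the groups. miR-21a-5p took 25.8% to 27.9% of the reads in control and 34.0% to 36.7% in TGF-beta libraries. With it left out and the rest rescaled, the log2 fold changes of all names moved up by a median of 0.16. miR-486a-5p was then at −0.61 (SE 0.12, limma adjusted p = 0.0048). As deposited, it lay 0.73 below the median of all names, a distance that such rescaling leaves nearly the same by construction. edgeR's quasi-likelihood test on the recovered reads gave −0.72 (adjusted p = 0.000809) and called 29 of 418 names (6.94%), and DESeq2 gave −0.73 (SE 0.13, adjusted p = 5.48e-07). In the authors' deposited table, whose test is not stated, the unadjusted p of the 3 names was 0.00165 to 0.0017, at ranks 11, 12 and 13 of 1065.

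Of the other muscle-enriched miRNAs, miR-206-3p and miR-1a-3p passed the threshold as lower as well. Of 7 such names, 6 were listed and 5 tested. All 5 had a negative log2 fold change, with a median of −0.41 against −0.05 over all 418 names. Of these 5, 2 passed as lower and none as higher, where 16 of all 418 names (3.83%) passed as lower. The differentiation-promoting miR-206-3p had a difference of −0.55 on the log2 scale, with an SE of 0.08 and an adjusted p of 0.000479 by limma. For miR-1a-3p, of heart and skeletal muscle, the difference was −0.43, with an SE of 0.12 and an adjusted p of 0.0363 by limma. The others did not pass. miR-133a-3p and miR-133b-3p, which act in myoblast proliferation and differentiation, were at −0.30 (SE 0.18) and −0.41 (SE 0.18), and miR-499-5p, from an intron of the myosin gene Myh7b, at −0.27 (SE 0.16). miR-208b-3p stood at 0 to 0.427 RPM, below the tested level, and miR-208a-3p was not listed. Leaving out replicate 1 or 3 of the control group, or replicate 2 or 3 of the TGF-beta group, gave a count of 1 in place of 2, since then miR-1a-3p missed the threshold (limma adjusted p from 0.106 to 0.22). The call of miR-1a-3p was lost in 12 of 18 alternatives, among them edgeR (adjusted p = 0.0709), DESeq2 (adjusted p = 0.0997) and rescaling without miR-21a-5p (−0.26, limma adjusted p = 0.248). That of miR-206-3p was lost in 2, with quantile normalization (−0.21, limma adjusted p = 0.277) and without the intensity trend (limma adjusted p = 0.0526).

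Whether miR-486 moved further than these names was examined by its ratio to each within a library, with 1 RPM added to both values. Apart from that addition, such a ratio does not depend on the scaling of the library. The RefSeq mature sequences of 3 of the 5 comparators are shown with the seed, bases 2 to 8, in capitals. Of the comparators not shown, miR-1a-3p is known to share the seed of miR-206-3p, and miR-133a-3p that of miR-133b-3p.
miR-206-3p: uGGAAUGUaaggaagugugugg
miR-133b-3p: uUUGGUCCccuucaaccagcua
miR-499-5p: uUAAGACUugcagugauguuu
The log2 ratio of miR-486a-5p to miR-206-3p was −7.32, −7.40 and −7.45 in control and −7.48, −7.62 and −7.76 in TGF-beta libraries. All treated ratios lay below all control ratios, by a mean difference of −0.23, but the nearest libraries, at −7.45 and −7.48, were close to each other beside SDs of 0.07 and 0.14. To miR-1a-3p, the ratio was −4.64 ± 0.09 in control and lower by a mean of 0.36 with TGF-beta, also without overlap. To miR-499-5p it went from 3.84 ± 0.07 to 3.33 ± 0.09 (SD, n = 3 each), a difference of −0.52 without overlap. To miR-133a-3p and miR-133b-3p the mean differences were −0.48 and −0.37, but TGF-beta replicate 3, where both miR-133 names were lowest at 388 and 268 RPM, lay inside the control range. Two-sided exact permutation tests gave p = 0.1 for the ratios to miR-499-5p, miR-206-3p and miR-1a-3p, the smallest value that 3 against 3 libraries allow, 0.2 for miR-133a-3p and 0.3 for miR-133b-3p, and values of 0.167 to 0.3 adjusted over the 5 ratios. No ratio could have reached 0.05 in this design, so the tests do not tell whether miR-486 moved further than these names.

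**Figure D4:**
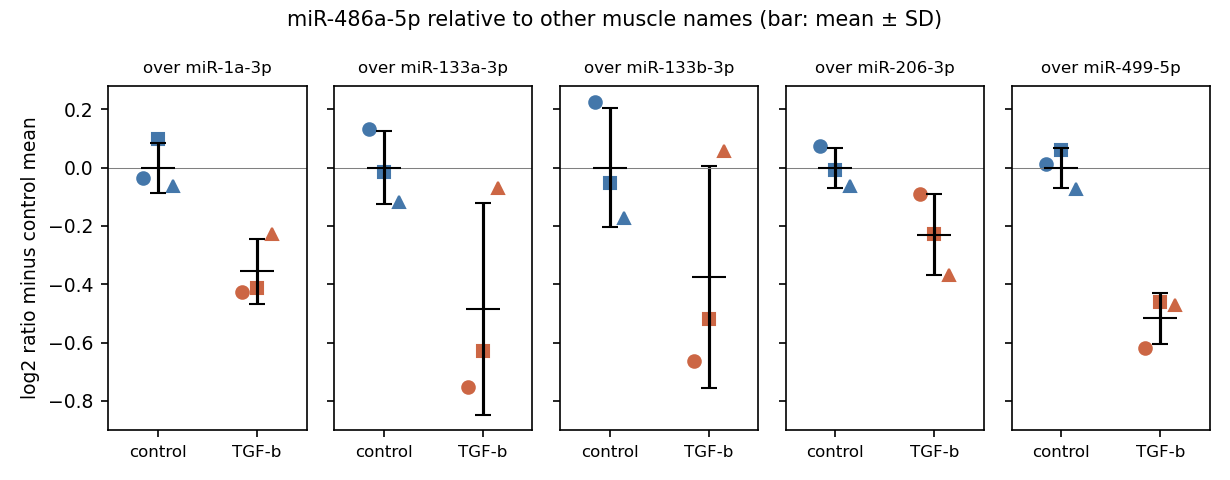
Log2 ratio of miR-486a-5p to 5 other muscle-enriched names within each library, minus the control mean of that ratio (y axis), by group, with mean and SD. Treated libraries lie below all control libraries for miR-499-5p, miR-1a-3p and miR-206-3p, and 1 treated library lies within the control range for the miR-133 names.

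Of the 5 names nearest to miR-486a-5p in profile, 4 were forms of miR-206, miR-1 and miR-133. Likeness was the root mean square difference from miR-486a-5p of log2(RPM + 1), centred on the mean of each name over the 6 libraries, among 238 other names that averaged 10 RPM or more. The centred profile keeps the difference between the groups, so likeness is no support independent of that difference. The nearest were miR-206-3p (0.146), miR-503-5p (0.194), miR-1a-3p with its shared-read partner miR-1b-5p (0.195 each) and miR-133a-5p (0.21), against a median of 0.415 over all names. miR-503-5p, linked to cell cycle exit of myoblasts, had a mean of 45.8 ± 3.36 RPM without and 28.3 ± 6.70 RPM with TGF-beta, a log2 difference of −0.70 (SE 0.17, adjusted p = 0.0152 by limma). miR-133a-5p was at −0.63 (SE 0.20, limma adjusted p = 0.0592) and did not pass. In miR-503-5p, miR-133a-5p, miR-1a-3p and miR-1b-5p, TGF-beta replicate 3 was the lowest library, as in miR-486a-5p. The same held for miR-133a-3p, miR-133b-3p and miR-499-5p, whereas miR-206-3p had its lowest value in TGF-beta replicate 1. The share of all names with their lowest value in TGF-beta replicate 3 was not counted, so this is not read as a trait of these names.

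**Figure D5:**
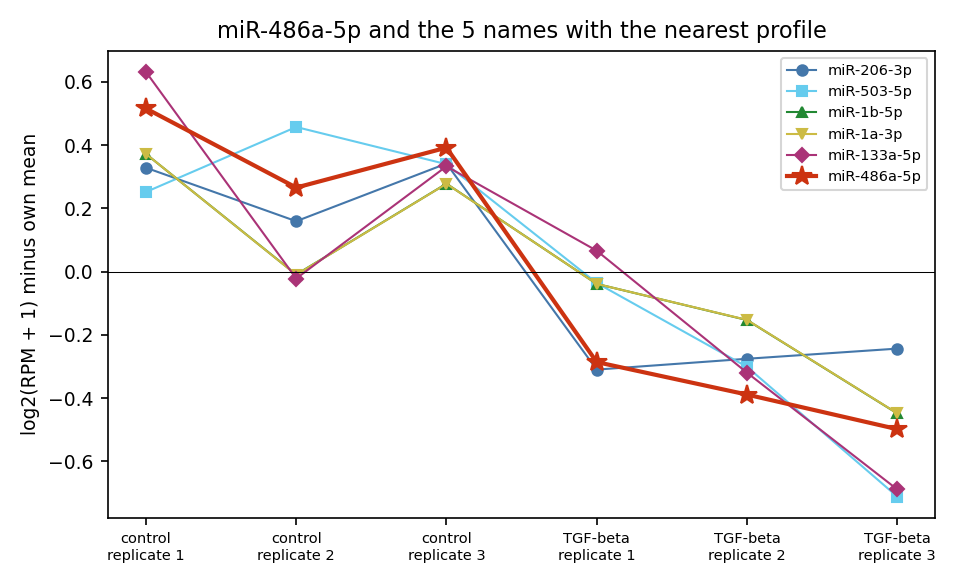
Log2(RPM + 1) minus the mean of each name (y axis) in the 6 libraries (x axis) for miR-486a-5p and the 5 names nearest to it. miR-206-3p runs closest, at a root mean square difference of 0.146, and the replicates of a group have no order.

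Markers of red cells, in which miR-486 is also abundant, were at or near 0. Of 7 markers of red and white blood cells, 6 were listed, and their summed level was 2.45 to 2.55 RPM in control and 2.12 to 4.99 RPM in TGF-beta libraries, highest in TGF-beta replicate 3, the library with the least miR-486. The red cell miRNA miR-451a stood at 0.106 to 2.11 RPM, miR-144-5p at 0 to 0.322 RPM, and miR-144-3p was not listed. At this depth a 0 leaves room for 3 reads, which is 0.306 to 0.333 RPM. Only miR-142a-3p, of white cells, was high enough to be tested, at −0.22 (SE 0.29), and it did not pass. Of the endothelial markers, miR-126a-3p stood at 12.3 to 24.3 RPM and did not pass either (−0.23, SE 0.21), and miR-126a-5p reached at most 1.27 RPM.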

How the data were processed

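Small RNA was sequenced in 3 control and 3 TGF-beta libraries of C2C12 cells, with 9015669 to 9813063 miRNA reads each. The authors deposited 1 table of 1065 names. The deposited values, headed TPM, are by their behaviour RPM, the reads of a name over the miRNA reads of its library: they sum to 1000000 per library and are multiples of a single step. Counts of reads were recovered from that step, and 100% of values came within 0.02 of a whole read. The same deposited table gives the authors' mean RPM of each group and an unadjusted p-value per name. Per the submitters' processing notes the build was mm9. For the aligner, the counter and reads that match several names, the method was not stated in these sources.

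The test was limma 3.58.1 (R 4.3.3) on log2(RPM + 1) with a trend of the variance on the level, a pseudocount that understates the change of low names, two-sided, with Benjamini-Hochberg adjustment and a threshold of 0.05. edgeR 4.0.16 and DESeq2 1.42.0 were run on recovered reads. Ratios were compared by exact permutation. Named are all miR-486 names, members of the lists, and the 5 names nearest in profile with a mean of at least 10 RPM. miR-664, miR-3068, miR-9, miR-374, miR-30, miR-182 and miR-183 names were chosen after their values were seen. A further list is not reported here. The members and lists were chosen with earlier results of these data known.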

Additional observations from a re-analysis of the deposited data

How the results depend on the processing

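The 3 miR-486 names kept their direction and stayed past the threshold in all 18 alternatives run for miR-486a-5p and all 17 for each of the others, with miR-486a-5p between −0.85 and −0.61 and its adjusted p between 5.48e-07 and 0.0192, the highest without an intensity trend. Counts moved more. Of all names, 33 passed, against 19 without a filter on low values, 20 with at least 10 RPM, 10 with quantile normalization and 16 without the trend. With a single name kept per set of names that agreed within 2% in every library, 25 passed. With 1 library left out the count ran from 17 (without TGF-beta replicate 2) to 36, with 18 without control replicate 1. Of other muscle-enriched names, 2 passed as lower. The count was 1 with no filter, at least 10 RPM, median scaling, miR-21a-5p left out, edgeR or DESeq2. It was 0 with quantile normalization or no trend, and 1 to 3 with 1 library left out. The cause was not tested. The within-library ratios kept their direction in all 9 alternatives, where no p could pass. The labels do not say whether equal replicate numbers pair the libraries. Deviations from the group means correlated at −0.08, −0.07 and −0.08 for equal numbers and at 0.007 to 0.075 for unequal numbers. These values show no shared deviation of equal numbers, but with 3 centred libraries per group they cannot exclude a pairing. With a replicate block, miR-486a-5p was at −0.78 (SE 0.16, limma adjusted p = 9.72e-05) and 32 names passed. The SE was larger than the 0.13 without the block, so the smaller p is no gain in precision. The 3 libraries per group limit the precision more than depth does.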
